A study of Mus musculus with 2 samples.

Results

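The Mir23, Mir27 and Mir24 genes of the mouse lie in 2 paralogous clusters, and all 6 genes were measured here in myotubes made from C2C12 cells. The a cluster, on chromosome 8, holds Mir23a, Mir27a and Mir24-2. The b cluster, on chromosome 13, holds Mir23b, Mir27b and Mir24-1. The 6 genes were taken by name, as the members of the paired clusters, from the 2202 annotated miRNA genes in the tables. C2C12 is an established line of mouse myoblasts, derived from injured thigh muscle of C3H mice, which fuse into multinucleated myotubes in culture. The study held 1 group, myotubes differentiated for 72 h, with 2 small RNA libraries labelled biological replicates 1 and 2 from separate biosamples of the same line. It named no treatment and no undifferentiated cells, so levels were compared between the genes and between the libraries.

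A miRNA gene is transcribed into a primary RNA from which a hairpin is released and then trimmed to short mature arms. Bases 2 to 8 of the mature arm, the seed, pair with messenger RNAs and repress them. The 3 hairpins of a Mir23-Mir27-Mir24 cluster are known to come from 1 primary transcript. In muscle, miR-23a is known to repress the ubiquitin ligases of muscle wasting, miR-27 to repress Pax3, a transcription factor of muscle progenitors, and myostatin, a brake on muscle growth, and miR-24 to promote myoblast differentiation. The clusters are also known for their high expression in endothelium.

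The mature sequences are shown because they set which reads can be told apart between the clusters. All come from RefSeq on the GRCm38.p6 assembly and are written 5′ to 3′, with the seed in capitals. The RefSeq table gave hairpins for all 6 genes and 11 of their arms, without miR-23b-3p.
miR-23a-3p: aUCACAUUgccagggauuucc
miR-27a-3p: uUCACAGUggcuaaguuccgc
miR-27b-3p: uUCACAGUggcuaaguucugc
miR-24-3p: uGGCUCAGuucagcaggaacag
miR-24-2-5p: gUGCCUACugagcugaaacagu
miR-24-1-5p: gUGCCUACugagcugauaucagu

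The miR-27 arms of the clusters share their seed and differ by 1 base of 21. Counted from the 5′ end of miR-27a-3p, the difference is C19U. The first 18 bases of miR-27a-3p are therefore present in the hairpins of both Mir27a and Mir27b, and forms of 19 bases or more match 1 hairpin. The first 18 bases of miR-23a-3p were likewise found in the hairpins of Mir23a and Mir23b, and forms from 19 bases on were found in Mir23a alone, among 1005 RefSeq hairpins. The miR-24-3p arm is identical in Mir24-2 and Mir24-1 over all 22 bases. Their 5p arms share the first 16 bases, and forms of 18 bases or more match 1 hairpin. The tables count reads per hairpin and do not say which arm a read came from.

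The hairpins of the Mir24 genes are shown with their longest shared run, of 28 bases, in capitals. It contains the whole miR-24-3p arm and bases on either side of it. Mir24-2 lies at chr8:84208815-84208921 and Mir24-1 at chr13:63301208-63301275, both on the plus strand (GRCm38.p6).
Mir24-2: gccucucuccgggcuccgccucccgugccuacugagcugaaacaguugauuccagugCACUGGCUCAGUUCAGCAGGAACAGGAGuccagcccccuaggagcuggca
Mir24-1: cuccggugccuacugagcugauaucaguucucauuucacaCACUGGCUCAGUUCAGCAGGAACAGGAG

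A read that lies wholly inside the capitals matches both hairpins exactly. The Mir23 hairpins shared a run of 20 bases, the Mir27 hairpins also 20, and no pair of members from different families shared more than 8. Reads that mapped to several places were kept by the authors in a line of their own, outside the gene counts. That line held 3378438 reads in replicate 1 and 3295854 in replicate 2, which was 190-fold and 80.5-fold the reads assigned to the Mir24 genes. Which miRNAs those reads came from was not tested. The Mir24 values below leave out any such read that was theirs, as do those of the other members.

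Both clusters are compact. On mm10, Mir23a (ENSMUSG00000065611.1) lies on chromosome 8 from 84208518 to 84208592 and Mir27a (ENSMUSG00000065444.1) from 84208672 to 84208758. Mir24-2 (ENSMUSG00000065541.1) follows 56 bases after Mir27a, and the a cluster spans 404 bases. No annotated gene contains it, and only the last 2 bases of Mir24-2 overlap an exon of the long non-coding RNA gene Gm26532. On chromosome 13, Mir23b (ENSMUSG00000065599.2) lies from 63300484 to 63300557 and Mir27b (ENSMUSG00000065475.2) from 63300712 to 63300784. Mir24-1 (ENSMUSG00000105904.1) follows 423 bases after Mir27b, so the b cluster spans 792 bases. It lies inside the protein-coding gene 2010111I01Rik on the same strand, where Mir23b is intronic in all 9 overlapping transcripts, Mir27b lies within an exon of 1 of 9, and Mir24-1 overlaps an exon in 4 of 11. An intron of Fancc covers the b cluster on the other strand. The b hairpins held 47.9% to 51.5% G and C, against 56.0% to 61.7% for the a hairpins.

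**Figure D1:**
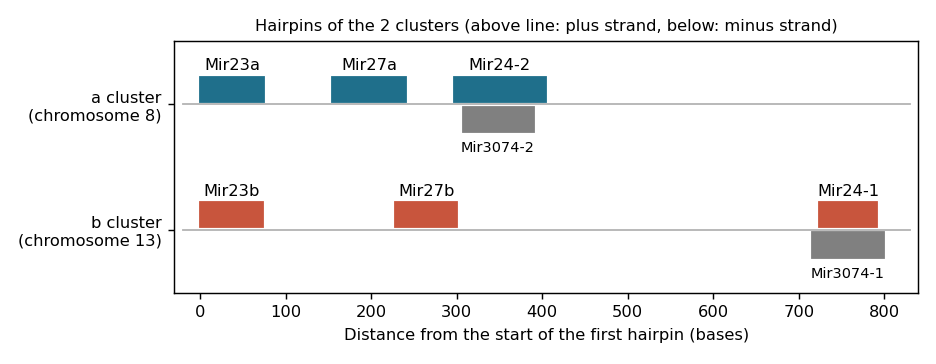
Position of the hairpins in the a and b clusters, as the distance in bases from the start of the first hairpin. Boxes above each line are the 6 genes on the plus strand, and grey boxes below it are miRNA genes on the minus strand. The a cluster spans 404 bases and the b cluster 792, and Mir24-2 and Mir24-1 each overlap a Mir3074 gene.

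Levels are given in CPM, the reads of a gene per 1000000 reads assigned to miRNA genes on their own strand. The assigned reads numbered 7581366 in replicate 1 and 9865298 in replicate 2. These were 49.4% and 53.5% of all reads. A read of this size covers about 1 mature arm, so levels were not divided by hairpin length. The labels mention no molecular identifiers, and all intervals are 95% exact Clopper-Pearson intervals that cover the counting of reads alone. The muscle identity of the cells was checked on a list of 9 markers, of which 6 reached 2 CPM in both libraries and which took 35.5% and 42.8% of miRNA reads, nearly all from Mir206. Mir1a-2, Mir133a-1 and Mir133a-2 of that list were below 2 CPM in at least 1 library, and they have near-identical copies. Of the defining markers of other cell types, blood markers had 678 and 1766 reads, endothelial markers 1660 and 439, epithelial markers 33 and 21, hepatocyte Mir122 8 and 4, embryonic stem cell markers 2 and 4, and neuronal markers 0 and 1. The neuronal count of 0 allows up to 0.396 CPM in replicate 1.

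The paired clusters were abundant in the myotubes. Together the 6 genes took 5.66% of miRNA reads in replicate 1 (429456 reads) and 4.71% in replicate 2 (464768 reads), or 5.19% ± 0.674 (SD, n = 2). The a cluster gave 3.45% and 2.99%, and the b cluster 2.21% and 1.72%. The lower a value was above the higher b value. All 6 genes reached 2 CPM in both libraries, as did 274 of the 2202 annotated genes, and 5 of the 6 had a mean of at least 1000 CPM, a level that 65 genes reached. Mir24-1 was the exception.

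Mir23a, the miR-23 gene of the a cluster, was the highest of the 6 in assigned reads. It gave 221083 reads and 29161 CPM in replicate 1 (interval 29042 to 29281) and 237074 reads and 24031 CPM in replicate 2 (interval 23936 to 24127). It ranked 7th and 8th of all miRNA genes. Its lower value was 1.81-fold the higher value of Mir23b, the next member.

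Mir23b, its paralog in the b cluster, gave 100681 reads and 13280 CPM in replicate 1 and 97506 reads and 9884 CPM in replicate 2. Both values were below both values of Mir23a. Mir27b, the miR-27 gene of the b cluster, gave 65523 reads and 8643 CPM in replicate 1 and 70105 reads and 7106 CPM in replicate 2. Mir23b and Mir27b were close, but the lower Mir23b value was above the higher Mir27b value. They ranked 13th and 15th (Mir23b) and 18th and 19th (Mir27b).

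Mir27a, the miR-27 gene of the a cluster, was much lower than Mir27b. It gave 24412 reads and 3220 CPM in replicate 1 and 19131 reads and 1939 CPM in replicate 2. Mir24-2, its neighbour, gave 16227 reads and 2140 CPM in replicate 1 and 38986 reads and 3952 CPM in replicate 2. Mir27a was above Mir24-2 in replicate 1 and below it in replicate 2, so their order was not resolved. Their ranks were 32 and 35 for Mir27a and 42 and 25 for Mir24-2.

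Mir24-1, the miR-24 gene of the b cluster, was the lowest member. It gave 1530 reads and 202 CPM in replicate 1 (interval 192 to 212) and 1966 reads and 199 CPM in replicate 2 (interval 191 to 208). These levels ranked 119th and 109th. The mean of Mir27a, the next member above it, was 12.9-fold higher, and their ranges did not overlap. Mir24-1 and Mir24-2 leave out reads that mapped to both genes.

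**Figure D2:**
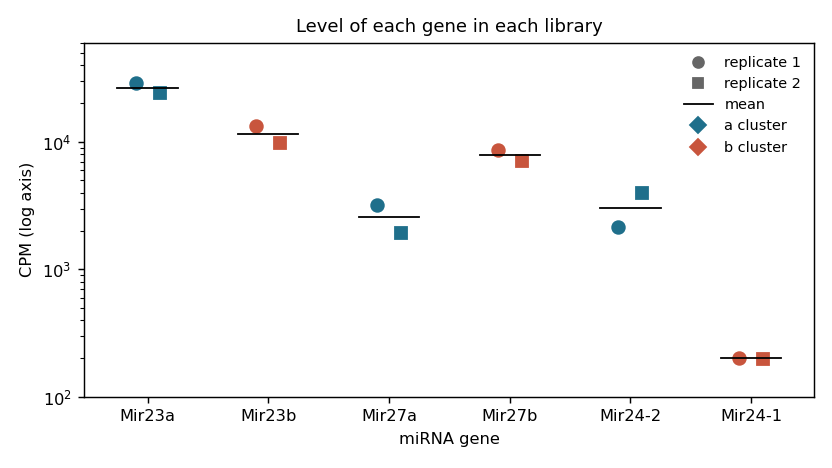
Level of each gene in CPM on a log axis, with 1 point per library (circle, replicate 1; square, replicate 2) and a line at the mean. Blue points are the a cluster and red points the b cluster. Mir23a lies above Mir23b, and Mir27b above Mir27a, in both libraries, while Mir24-1 is the lowest in both.

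The paralogs did not follow 1 order. For miR-23 the a gene was higher, with 2.20 reads of Mir23a per read of Mir23b in replicate 1 and 2.43 in replicate 2, a log2 ratio of 1.21 ± 0.10 (SD, n = 2). For miR-27 the b gene was higher, with 2.68 and 3.66 reads of Mir27b per read of Mir27a, a log2 ratio of Mir27a to Mir27b of -1.65 ± 0.32 (SD, n = 2). For miR-24 the a gene was higher again, with 10.6 and 19.8 assigned reads of Mir24-2 per read of Mir24-1, a log2 ratio of 3.86 ± 0.64 (SD, n = 2). Each direction was the same in both libraries, and no counting interval of a log2 ratio contained 0. These ratios are formed within a library and need no scaling between libraries.

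The a-to-b ratio of miR-23 exceeded that of miR-27 by 2.56 on the log2 scale in replicate 1 and by 3.16 in replicate 2, or 2.86 ± 0.42 (SD, n = 2). Equal a-to-b ratios of reads for miR-23 and miR-27 would put this difference at 0. The measured difference was larger than the spread between the libraries, and its cause was not tested. An exact two-sided paired permutation test over 2 libraries can give no p below 0.5, so none was made for the ratios. Summed over its 3 genes, the a cluster had 1.56 times the assigned reads of the b cluster in replicate 1 and 1.74 times in replicate 2. Without the Mir24 genes, which share a whole mature arm and whose counts leave out its shared reads, it had 1.48 and 1.53 times. Any Mir23 or Mir27 read that mapped to both paralogs is left out there too.

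**Figure D3:**
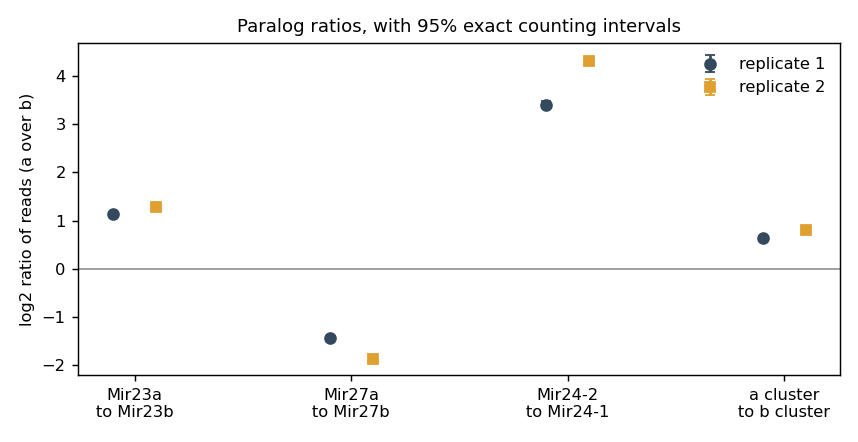
Log2 ratio of reads, a over b, for the 3 pairs of paralogs and for the summed clusters, in replicate 1 (dark circles) and replicate 2 (yellow squares), with 95% exact counting intervals that are mostly smaller than the points. The miR-23 and miR-24 ratios lie above 0 and the miR-27 ratio below 0 in both libraries.

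Within each cluster the miR-23 hairpin gave the most assigned reads, but the make-up of those reads differed. Multimapping reads, among them any from the arm that the Mir24 genes share, are left out of these shares. The share of miR-24 in each cluster with such reads included was not measured. In the a cluster Mir23a took 84.5% of the cluster's reads in replicate 1 and 80.3% in replicate 2, Mir27a 9.33% and 6.48%, and Mir24-2 6.20% and 13.2%. In the b cluster Mir23b took 60.0% and 57.5%, Mir27b 39.1% and 41.3%, and Mir24-1 0.912% and 1.16%. The share of the miR-27 hairpin in the assigned reads was thus at least 39.1% in the b cluster and at most 9.33% in the a cluster.

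Mir23a outnumbered Mir27a 9.06-fold and 12.4-fold, whereas Mir23b outnumbered Mir27b 1.54-fold and 1.39-fold. Mir23a outnumbered Mir24-2 13.6-fold and 6.08-fold. The log2 ratio of Mir27a to Mir24-2 differed more between the libraries, at 0.59 in replicate 1 and -1.03 in replicate 2. The ratio of Mir23b to Mir24-1 was 65.8-fold and 49.6-fold. All ratios to a Mir24 gene are of assigned reads and leave out multimapping reads.

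**Figure D4:**
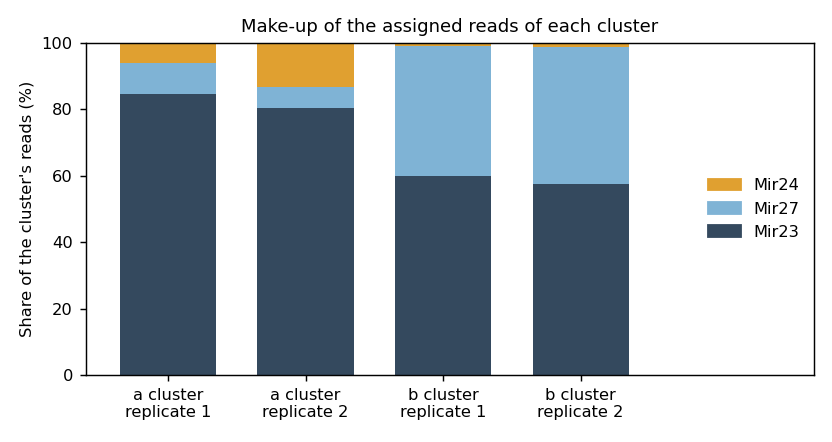
Share of each cluster's assigned reads, in percent, that came from its miR-23 (dark), miR-27 (light blue) and miR-24 (yellow) hairpin, with 1 bar per cluster and library. The light blue part is 9.33% and 6.48% of the a cluster and 39.1% and 41.3% of the b cluster.

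Summed by family, the Mir23 pair took 4.24% and 3.39% of miRNA reads, the Mir27 pair 1.19% and 0.905%, and the Mir24 pair 0.234% and 0.415%. The sum of the Mir24 pair leaves out any read that mapped to both of its genes. These sums therefore do not rank miR-24 against the other families. The a cluster supplied 68.7% and 70.9% of the assigned miR-23 reads but 27.1% and 21.4% of the assigned miR-27 reads. It supplied 91.4% and 95.2% of those assigned to Mir24 genes. Among the mature arms in the RefSeq table, the seed of the miR-27 arms was found in Mir27a and Mir27b alone. The seed of miR-24-3p was shared by Mir6413, Mir6410, Mir6369 and Mir5124b, which had 0 reads in the libraries, a count whose upper limit is 0.396 CPM (replicate 1) or 0.304 CPM (replicate 2).

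The libraries differed in these genes by more than the counting of reads. A gene-by-gene exact two-sided binomial test compared the libraries, with trimmed-mean (TMM) scaling in edgeR and Benjamini-Hochberg adjustment over the 415 genes with 10 or more reads. Of the 6 members, 5 had an adjusted p below 0.05, against 55.7% of all genes tested. Of those, 4 members were higher in replicate 1 (background 30.4%) and 1 was higher in replicate 2 (background 25.3%). This test compares these libraries, not conditions, and finds small differences at high counts. Among the 65 genes at a mean of 1000 CPM or more, 64 were called, 35 higher in replicate 1 and 29 higher in replicate 2.

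Mir24-2 differed most, being 1.89-fold higher in replicate 2, a log2 fold of 0.92 (interval 0.89 to 0.94). Mir27a was 1.63-fold higher in replicate 1, Mir23b 1.32-fold, Mir27b 1.19-fold and Mir23a 1.19-fold. The adjusted p of Mir27b was 5e-225 by the exact binomial test, and those of the other 4 were too small for the software to hold. Mir24-1 was nearly level, with a log2 fold of 0.01 (interval -0.08 to 0.11) and an adjusted p of 0.879 by the exact binomial test. Mir27a and Mir24-2, neighbours in the a cluster, thus differed between the libraries in opposite directions.

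No member differed 2-fold or more, against 28.0% of the genes tested. At a mean of 1000 CPM or more, a level that 5 of the 6 members reached, 11 of 65 genes did. The median size of the log2 fold was 0.32 over the 6 members, 0.61 over all genes tested, and 0.46 over those at a mean of 1000 CPM or more. edgeR gave a biological coefficient of variation of 0.426 over the 274 genes detected in both libraries. The endothelial marker Mir126a had 217 CPM in replicate 1 against 42.9 CPM in replicate 2, while Mir126b had 1.85 and 1.62 CPM. The blood marker Mir142 had 89.0 and 178 CPM. Of the other blood markers, Mir150 had 0.132 and 1.32 CPM and Mir223 had 0.264 and 0.101 CPM. The markers of a list thus did not move as 1. Any link between these markers and the members was not tested.

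**Figure D5:**
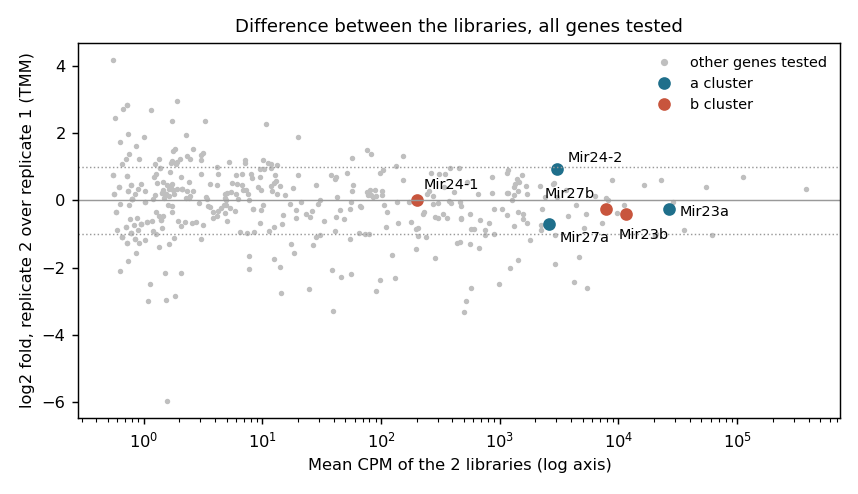
Log2 fold of replicate 2 over replicate 1 after TMM scaling, against the mean CPM on a log axis, for the 415 genes tested (grey) with the a cluster in blue and the b cluster in red. Dotted lines mark 2-fold. All 6 members lie inside them, with Mir24-2 at 0.92 and Mir27a at -0.70 furthest from 0.

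The hairpins of Mir3074-2 and Mir3074-1 lie on the strand opposite Mir24-2 and Mir24-1 and overlap them by 83 and 68 bases. Mir3074-2 had 1 read in replicate 1 and 0 in replicate 2 on its own strand, and Mir3074-1 had 21 and 3. On the other strand of the same places, Mir24-2 had 16227 and 38986 reads and Mir24-1 had 1530 and 1966. In the column read from its values as the count that ignores strand, Mir24-2 and Mir24-1 were listed at 0 in both libraries. The counts of the other 4 members were the same there as on their own strand. The line for ambiguous reads held 741854 and 1485288 reads in that column, against 0 in both libraries in the own-strand column.

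Clusters built alike, with 1 arm that is identical between the copies beside distinct relatives, were set beside the paired clusters. In Mir29a with Mir29b-1 and Mir29c with Mir29b-2, the Mir29b genes, which share miR-29b-3p, took 0.222% and 0.360% of the assigned reads. In Mir15a with Mir16-1 and Mir15b with Mir16-2, the Mir16 genes, which share miR-16-5p, took 24.2% and 29.4%. The Mir24 genes, at 4.13% and 8.81% of the reads of their clusters, lay between them, and the 3 ranges did not overlap. The shares are not like for like. The Mir24 genes stand beside 4 distinct relatives, and the Mir29b and Mir16 genes beside 2 each. In all 3 sets, any multimapping reads of the identical arm are left out.

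The genes nearest in level, by the distance of log2(CPM + 1) over the 2 libraries, were Mir99a and Mir143 for Mir23a, and Mir133b and Mir99b for Mir23b. Mir100 and Mir149 were nearest to Mir27b, Mir221 and Mirlet7d to Mir27a, Mir214 and Mir30e to Mir24-2, and Snord43, annotated as a miRNA gene, and Mir1983 to Mir24-1. The closest was Snord43, with 212 and 205 CPM at a distance of 0.08. Mir133b, a muscle miRNA, had 13610 and 10568 CPM at a distance of 0.10 from Mir23b. With 2 libraries this likeness is a matter of level and says little of pattern.

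Among 36 other miRNA genes reported to act on myoblasts or muscle mass, the most abundant were Mir206 (340841 and 416794 CPM), Mir378a (87515 and 138481 CPM), Mir322 (27578 and 13017 CPM) and Mir133b. Mir206 and Mir133b are muscle-enriched miRNAs, Mir378a lies in the metabolic coactivator gene Ppargc1b, and Mir322 belongs to a cluster linked to cell cycle exit. Mir23a, with 29161 and 24031 CPM, was below Mir206 and Mir378a and above Mir322 in both libraries, although the ranges of Mir23a and Mir322 over the libraries overlapped. Of these genes 34 were tested and 27 differed between the libraries, 17 of these with more in replicate 1 and 10 with more in replicate 2. Their median size of log2 fold was 0.44. The median level over all 36, of which 30 reached 2 CPM in both libraries and 2 had no read, was 150 CPM. The median over all 2202 annotated genes was 0 CPM, and over the 274 detected genes alone it was 90.3 CPM. The mean of each of the 6 members was above these medians.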

How the data were processed

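Small RNA reads of 2 libraries of C2C12 myotubes were counted per miRNA gene by the authors. The deposited files hold raw counts made with the mm10 assembly and the M21 annotation, per the file headers in the accompanying text. The sources used here do not name the aligner, the counting program, the trimming or the read filters. No header names the 3 count columns, so which one ignores strand, which is the gene's own strand and which the opposite strand was inferred from the values. The column taken as the gene's own strand, which held the most gene reads, was used. The summary lines for unmapped, multimapping and no-feature reads (22.7%, 22.0% and 5.88% of 15349205 reads, and 23.1%, 17.9% and 5.57% of 18450359 reads) were left out of totals and tests. All 2202 identifiers matched GENCODE M21 (GRCm38). CPM are counts per 1000000 miRNA reads, and a count of 3 reads corresponded to 0.396 and 0.304 CPM.

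From the counts, CPM, shares and log2 ratios (pseudocount 0.5 reads) were computed with Python 3.11.15, scipy 1.17.1 and pandas 2.3.3. TMM factors and dispersion came from edgeR 4.0.16 in R 4.3.3. With 1 group, edgeR's quasi-likelihood test had no contrast. An exact binomial test per gene was used in its place and was tested on simulated counts. Those counts held counting error alone, so the simulation says nothing of the spread between these libraries. The labels call the libraries biological replicates, but the binomial p-values hold counting error only. The members and lists were chosen with earlier results of these data known. Named genes were the 6 members, miRNA genes within 10 kb, the 2 nearest in level, seed sharers, clusters built alike, the most abundant of a list of muscle regulators, and cell type markers. Of 9 embryonic stem cell markers, 8 matched. Alternatives were the count that ignores strand, other denominators, pseudocounts, read minimums, scaling by DESeq2 1.42.0 size factors or totals, and each library left out. The cluster ratio without the Mir24 genes was added after seeing the data.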

Additional observations from a re-analysis of the deposited data

Results flagged for a closer look

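Flagged were the multimapping line, and any count on the strand opposite a member above 3 reads, the upper limit for a count of 0. The multimapping line held 3378438 reads in replicate 1 and 3295854 reads in replicate 2. The share of these from the miR-24-3p arm, which Mir24-2 and Mir24-1 have in common, was not tested. On the strand opposite Mir24-1, 21 reads were counted in replicate 1, the same number as on the own strand of Mir3074-1. Groups of 2 libraries are too small to look for an outlying one, and 1 group allows no comparison between groups.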

How the results depend on the processing

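Of 81 alternative values, 58 were labelled the same. They kept their direction and stayed within the spread between the libraries, kept their call, or gave a similar count of called members. That count was 4 when strand was ignored, against 5 as reported. Another 22 moved further and 1 changed sign. With 2 libraries, leaving 1 out always moves a mean by less than their SD, so those alternatives could not fail. Nor could the Mir23a to Mir23b and Mir27a to Mir27b ratios change when strand was ignored, since their counts were the same. The 58 are thus no measure of stability. With all reads as the denominator the a cluster took 1.65% and the b cluster 1.01%, and without the most abundant gene in the denominator they took 5.18% and 3.15%. The log2 ratio of the a to the b cluster was 0.72 as reported and 0.59 both in the count that ignores strand and without the Mir24 genes. These last values are the same calculation, since the Mir24 genes stood at 0 in the count that ignores strand. The log2 fold of Mir24-1 was -0.0183 with library totals (adjusted p = 0.797 by the exact binomial test), against 0.0121 with TMM and 0.0397 with DESeq2 size factors (adjusted p = 0.535), so it had no direction. The other 5 members kept their call and direction under every scaling, except that Mir24-2 had no reads to test when strand was ignored. The remaining moved values were levels of single members. In the count that ignores strand Mir24-2 and Mir24-1 were listed at 0 CPM, and the others moved with the denominator. The ratio of Mir24-2 to Mir24-1 could not be formed from the count that ignores strand. No paired analysis was possible because the series has 1 group. Precision is limited by there being 2 libraries and by reads left out as multimapping. Any Mir24 read wholly inside the shared arm is among these, as is any shortened Mir23 or Mir27 read that maps to both paralogs.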
